A study of Oryza sativa with 3 samples.

Results

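Of the KNOX genes of rice, 9 are described here. OSH1, OSH3, OSH6, OSH43 and OSH71 belong to class I, and OSH45, HOS58, HOS59 and HOS66 to class II. They were chosen by name, with earlier results of these data known, and they are 9 of the 17905 genes that the platform annotation gives at least 1 probe set of their own. All 9 were found, with 11 probe sets in total out of 57258 that are not controls. OSH1 and OSH43 have 2 each, the other genes 1 each. The rice KNOX genes OSH15 and OSH10 are not among the 9 and gave no values here, though both were searched for among meristem genes. OSH15 had no probe set of its own. RNA came from shoot tips of the japonica cultivar Hitomebore. The growth protocol mentions 2 genotypes, but the labels of all 3 arrays give this cultivar alone. Its seeds spent 2 days at 28 °C in darkness, and the seedlings then grew for some 48 h at 26 °C in a greenhouse whose day had 16 h of light. The 3 arrays are biological replicates 1 to 3 of 1 group, labelled CK shoot. The labels do not spell out CK and name no allele, transgene or agent. They do not say how many seedlings were pooled per array. There is no second group, so the data answer which of these 9 genes gave signal in the shoot tip and how far the 3 samples agreed. The p-values for spread measure the spread between these samples alone.

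KNOX proteins are homeodomain transcription factors of the TALE type, with a loop of extra residues in the homeodomain, and they bind DNA together with BELL proteins, another TALE family. Class I genes are active in the shoot meristem, where they keep cells from differentiating, and are switched off where a leaf begins. They are known to raise cytokinin and lower gibberellin in the meristem, and in rice OSH1 is known to act on genes that break down brassinosteroids. Class II genes are transcribed more widely, mainly in differentiating and mature organs.

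Values are log2 values after robust multi-array averaging (RMA). The highest of 17 Tag control probe sets, which hold artificial sequences, was taken on each array as a ceiling of background: 4.98, 4.88 and 4.97 on replicates 1, 2 and 3. The array median was 4.91, 4.92 and 4.87, and Pearson's r between arrays, across probe sets, was 0.993 to 0.996. The endosperm and grain markers and the ribosomal RNA controls set single arrays apart: the former were high on replicate 2, as given below with the KNOX values, and the 28S control read 11.39, 11.26 and 8.46. A brightness also depends on how well a probe binds, so percentiles and the words brightest and dimmest rank probe sets, not amounts of RNA. In a piece of tissue, fewer cells of a type and less RNA per cell cannot be told apart.

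All 4 class II genes lay far above the ceiling on every array, by 3.36 log2 or more. No class I gene lay more than 1.68 log2 above it on any array, and some lay below it. Of the 9 genes, 6 exceeded the ceiling on each of the 3 arrays, 4 of 4 in class II and 2 of 5 in class I, against 81.3% of all genes. Below the ceiling on all 3 arrays lay 2 class I genes, OSH3 and OSH43, against 15.4% of all genes. The remaining gene, OSH1, was above it on 2 arrays. Of the 11 probe sets, 6 were above the ceiling on every array, against 46.8% of all probe sets, and 3 below it on every array, against 47.8%. The median brightness, over the genes' mean values, was 9.63 in class II and 5.48 in class I, and 8.28 over all genes, which ranks no amounts of RNA.

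**Figure D1:**
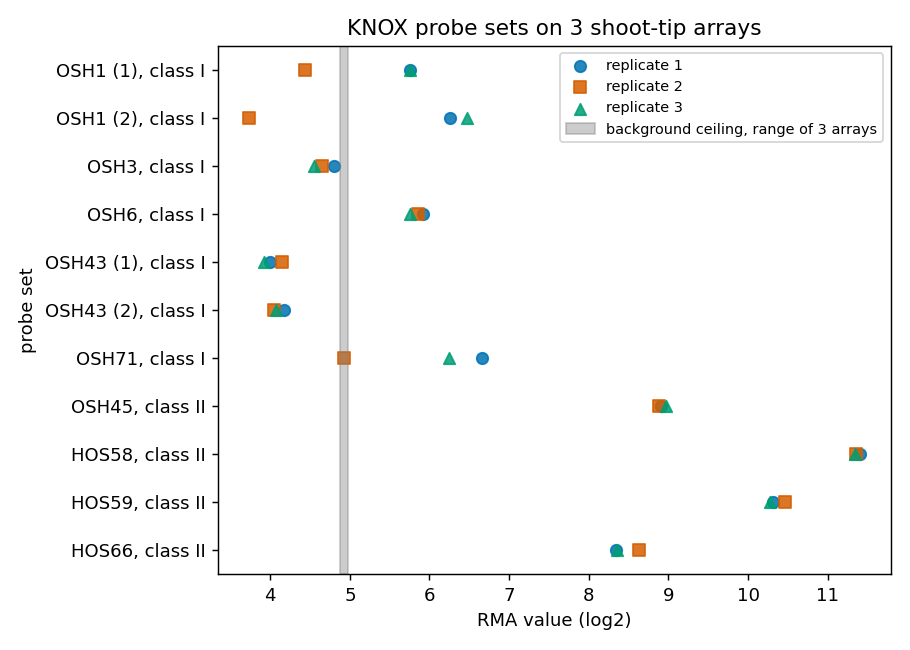
RMA values (x axis, log2) of the 11 KNOX probe sets (y axis), with circles for replicate 1, squares for replicate 2 and triangles for replicate 3. The grey band spans the background ceilings of the arrays, 4.88 to 4.98; class II points all lie to its right, and the squares of OSH1 and OSH71 lie far to the left of their other points. OSH1 (1) is the _x_at and OSH1 (2) the _at probe set, and OSH43 (1) is the _at and OSH43 (2) the _s_at probe set.

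Among class II genes, HOS58 (LOC4328520, chromosome 2) read 11.40, 11.36 and 11.35 on replicates 1, 2 and 3. It lay in the top few percent of all probe sets on each array, at percentiles 96.9, 96.9 and 96.8, and the 3 samples were nearly equal. Its mean of 11.37 ± 0.03 (SD, n = 3) had a 95% interval of 11.27 to 11.48. It exceeded the ceiling by 6.43 log2 (standard error 0.06), with an adjusted p of 2.0e-22 in limma's moderated test. In limma without its trend and robust options the adjusted p was 6.0e-11. Like all limma p-values here, it rests in large part on variances borrowed from other probe sets, and takes the ceiling as free of error.

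HOS59 (LOC4341661, chromosome 6) read 10.31, 10.46 and 10.27, highest on replicate 2. Its probe set ends in _a_at, an ending for probes shared by several transcripts of a gene, and the annotation lists 3 RefSeq transcripts of HOS59. The mean was 10.35 ± 0.10 (SD, n = 3), 5.40 above the ceiling (limma adjusted p = 4.0e-20).

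OSH45 (LOC4345191, chromosome 8), the class II gene with the most annotated transcripts here, 5, read 8.90, 8.88 and 8.97. The samples lay within 0.09 log2 of each other. The mean was 8.92 ± 0.04 (SD, n = 3), and the excess over the ceiling was 3.97 (limma adjusted p = 7.4e-18).

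HOS66 (LOC4331449, chromosome 3) read 8.34, 8.62 and 8.35 and was, like HOS59, highest on replicate 2. Its range of 0.29 log2 was the widest among the class II genes. It is also read by an _a_at probe set. The mean of 8.44 ± 0.16 (SD, n = 3) exceeded the ceiling by 3.50 (limma adjusted p = 1.1e-15).

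Among class I genes, OSH6 (LOC4325788, chromosome 1) gave a low but steady signal of 5.92, 5.85 and 5.76. All 3 samples lay above the ceiling, by 0.94, 0.97 and 0.79. The mean of 5.84 ± 0.08 (SD, n = 3) passed limma's test against the ceiling (difference 0.90, standard error 0.12, adjusted p = 2.2e-06). It was the single class I probe set to do so in that direction.

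OSH71 (LOC4337701, chromosome 5), also called Oskn2, read 6.67, 4.93 and 6.24. Replicates 1 and 3 were well above the ceiling, and replicate 2 was above it by 0.05. The mean of 5.95 ± 0.90 (SD, n = 3) did not pass against the ceiling (difference 1.002, standard error 0.37, limma adjusted p = 0.066). It did pass without replicate 2 (limma adjusted p = 0.00018) and without replicate 1 (0.00011), but not without replicate 3 (0.39). Each of these fits holds 2 arrays, and its p-value rests largely on variances borrowed from other probe sets. Without replicate 1 the values left were 4.93 and 6.24 (SD 0.92). The p-values of such fits therefore do not measure how far the samples agreed.

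OSH1 (LOC4333973, chromosome 3), the gene known to maintain the rice shoot meristem, read 6.25, 3.73 and 6.47 from its brighter probe set, which ends in _at. On replicate 2 it lay at percentile 14.0 of the array, against 64.7 and 65.6 on replicates 1 and 3. The second probe set, whose ending _x_at marks probes that may bind other transcripts too, read 5.76, 4.44 and 5.76. Both probe sets were therefore below the ceiling on replicate 2 and above it on the other arrays.

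The mean of the brighter OSH1 probe set, 5.48 ± 1.52 (SD, n = 3), had a wide 95% interval of 4.15 to 6.81 and did not pass against the ceiling (limma adjusted p = 0.58). Without replicate 2 both OSH1 probe sets passed (limma adjusted p = 0.00016 and 0.0023), in a fit of 2 arrays with the limit given for OSH71. A long non-coding RNA gene, LOC112938160, overlaps the span of OSH1 in the annotation, and which of these 2 RNAs the probes bind was not tested.

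OSH3 (LOC4333975) is separated from OSH1 on chromosome 3 by 1 annotated gene, LOC4333974. It read 4.80, 4.65 and 4.55, below the ceiling on every array. Its mean of 4.66 ± 0.13 (SD, n = 3) was lower than the ceiling by limma (difference -0.28, adjusted p = 0.020). This call was lost without replicate 2 (limma adjusted p = 0.056) or replicate 3 (0.12), in fits of 2 arrays each. It was also lost with the 95th percentile of Tag controls as ceiling (limma adjusted p = 0.85). The gene between them read 8.68, 8.49 and 8.57, so it did not show the low value that OSH1 had on replicate 2.

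OSH43 (LOC4334261, chromosome 3) read 4.17, 4.05 and 4.08 from an _s_at probe set, whose ending marks probes that match several transcripts, and 4.002, 4.144 and 3.926 from an _at probe set. Both stayed under the ceiling on every array and passed limma's test in that direction (differences -0.85 and -0.92, adjusted p = 7.1e-08 and 4.0e-08). A protein-coding gene, LOC4334260, overlaps its span in the annotation. A value under the ceiling shows that no signal was detectable with these probes, not that the RNA was absent.

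In all, 5 of the 11 KNOX probe sets exceeded the ceiling by limma, against 45.7% of all probe sets, and 3 lay below it, against 46.7%. The split between classes is a description of these probe sets, and no test of the classes was made.

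The samples disagreed on OSH1 and OSH71 and on no other KNOX gene by more than 1 log2. These were 2 of 9 genes with a range over 1 log2, against 0.877% of all genes, and in both the low sample was replicate 2. OSH1 was lower there than the mean of replicates 1 and 3 by at least 2.79-fold, with the value under the ceiling set to it. OSH71 was 2.87-fold lower there, against a value only 0.05 above that array's ceiling and below the highest Tag control of all arrays. The second OSH1 probe set was lower by at least 1.84-fold.

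A drop of this size on replicate 2 was rare on the array. Only 4 of 17905 genes (0.0223%) were lower on replicate 2 than on both other arrays by over 1 log2, and 2 of the 4 were OSH1 and OSH71. The others, LOC4347898 (7.53, 5.91 and 7.81) and LOC4339414 (6.44, 5.04 and 6.53), have no gene name in the tables used. Of 10 probe sets with such a drop, 3 were those of OSH1 and OSH71, and 5 were given no gene. On replicate 1, 1 gene was lower than on both other arrays by over 1 log2 and 10 were higher. On replicate 3, 2 were lower and 60 higher. None of these was a KNOX gene, nor were the 9 genes (0.0503%) that were higher on replicate 2 by over 1 log2. The 1 log2 threshold was chosen with the OSH1 and OSH71 values known, so these counts describe the arrays and test nothing.

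**Figure D2:**
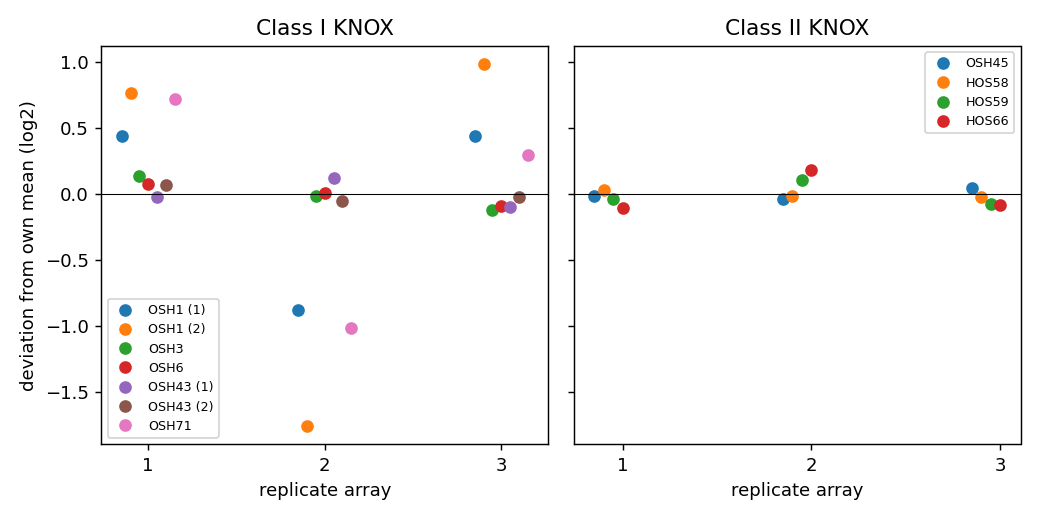
Deviation of each KNOX probe set from its own mean over the 3 arrays (y axis, log2) on each replicate (x axis; the 3 replicates have no order), class I on the left and class II on the right. On replicate 2 both OSH1 probe sets and OSH71 lie far below 0, and the remaining points of that replicate stay near 0 in both classes.

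No KNOX probe set passed the test of spread. This was an F test of each variance over limma's trend, computed from limma's fit and not a test of that package. With Benjamini-Hochberg adjustment, 0 of 57258 probe sets passed (0%). In the same F test 1393 (2.43%) had an unadjusted p under 0.05, among them 3 of the 11 KNOX probe sets. These 3 belonged to OSH1 and OSH71, each with an adjusted p of 0.94 in the F test. Their SDs stood at percentiles 99.8, 99.4 and 99.3 among probe sets of like mean level. Over only the probe sets above the array median, where fewer were tested and 51 passed, the adjusted p was 0.055 and 0.58 for OSH1 and 0.42 for OSH71.

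Among the other KNOX genes, HOS58, OSH45 and OSH6 had SDs at percentiles 8.39, 11.7 and 14.1 among probe sets of like level. Those of HOS59 and HOS66 stood at 55.9 and 73.7, in the upper part. OSH3 stood at 42.9 and the OSH43 probe sets at 19.8 (_s_at) and 50.0 (_at), but they lay below the ceiling, where a small spread says little about the RNA. The median SD was 0.07 in class II and 0.13 in class I, against 0.12 over all genes.

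**Figure D3:**
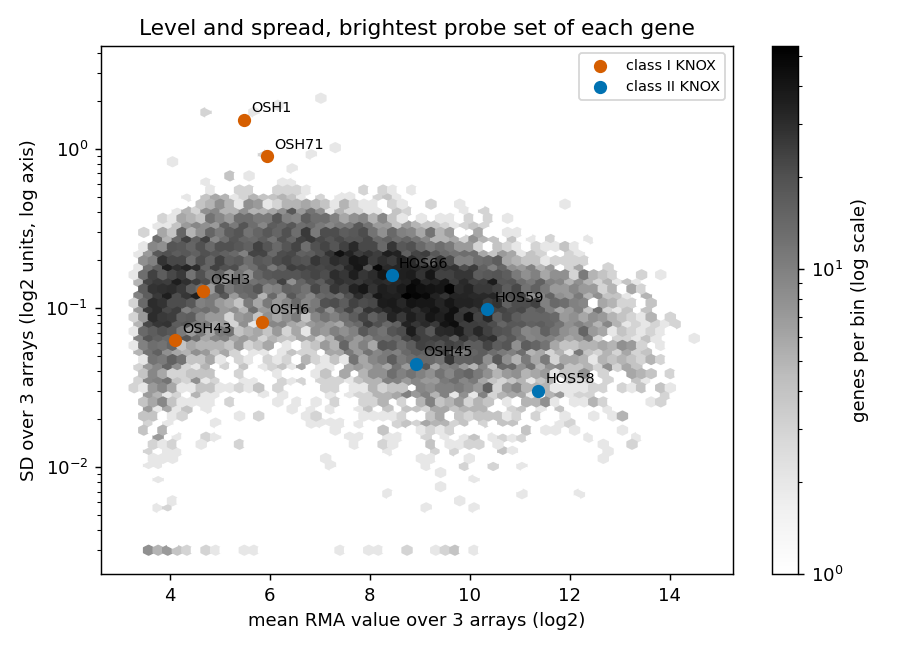
Mean RMA value (x axis, log2) against the SD over the 3 arrays (y axis, log axis; SDs under 0.003 are drawn at 0.003) for the brightest probe set of each gene. Grey cells count all 17905 genes, and coloured points mark the KNOX genes. OSH1 and OSH71 lie above nearly all genes of like mean, and HOS58 lies low in the cloud.

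OSH6, the other class I gene above the ceiling, did not show the low value on replicate 2: it differed there from the mean of the other arrays by 0.02 log2. OSH3 (-0.02) and OSH43 (-0.07 and 0.18 from its 2 probe sets) showed no such drop either. They lay below the ceiling on every array, where the lack of a drop says little about the RNA. In class II the differences were -0.02 for HOS58, -0.05 for OSH45, 0.17 for HOS59 and 0.28 for HOS66. Over all genes the median was -0.03. Of the 9 KNOX genes 4 were lowest on replicate 2, against 36.8% of all genes, and 2 were highest there, against 25.6%.

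Markers of endosperm and grain also stood apart on replicate 2. All 6 endosperm and grain genes with a probe set, GLUA1, GLUA2, GLUB5, PROLAMIN, RAG1 and RAG2, were highest on replicate 2, against 25.6% of all genes. Their summed linear signal was 206, 1295 and 217. The allergen gene RAG2 read 4.40, 9.22 and 3.94. Only GLUA2 was above the ceiling on each array, as were 81.3% of all genes. GLUA1, PROLAMIN and RAG2 were read from _s_at or _x_at probe sets, which may bind transcripts of related genes. For the 3 secondary wall genes, CESA4, CESA7 and CESA9, replicate 1 was the low array, with a summed linear signal of 1751, 2333 and 2271, and replicates 2 and 3 were close. The part of these cells in the KNOX values was not tested.

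Of 4 markers of dividing cells, 3 were lowest on replicate 2, against 36.8% of all genes. Their summed linear signal was 5234, 4657 and 5400. PCNA, a clamp that holds DNA polymerase on its template, read 11.43, 11.25 and 11.32. On replicate 2 the 4 genes differed from the mean of the other arrays by -0.13 (PCNA), -0.19 (CYCB2-2), -0.24 (CYCB2-1) and -0.32 (CDKB2-1) log2. The leaf and leaf primordium markers DL, RCA, CAB2R, PORA, PETE, YAB1, YAB2 and YAB6 summed to 45754, 50638 and 43832. Of these 8, 4 were highest on replicate 2, against 25.6% of all genes. Root markers summed to 1555, 1510 and 1319. Of these, 2 of 4, LSI2 and IRT1, lay below the ceiling on all arrays, against 15.4% of all genes. LSI1 and HAK1, the latter read from an _x_at probe set, did not. Their part in the KNOX values was not tested.

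The shoot meristem markers summed to 320, 171 and 289, with 2 of 6 above the ceiling on all arrays, against 81.3% of all genes. All but WOX4 are KNOX members, so this sum restates the values above and is no separate readout. Its low value on replicate 2 came mainly from OSH1 and OSH71. There OSH6, OSH3, OSH43 and WOX4 differed from the mean of the other arrays by 0.02, -0.02, -0.07 and -0.25 log2. Apart from the KNOX members the list holds 1 gene with a probe set of its own, WOX4, a WUSCHEL-related homeobox gene, which read 5.18, 4.81 and 4.94. Like OSH1 it was lowest on replicate 2, but it lay above the ceiling on replicate 1 alone, and its mean did not pass against the ceiling (0.04 above, limma adjusted p = 0.77). Of the other lists, all 4 markers of dividing cells and 7 of 8 leaf markers exceeded the ceiling on each array, against 81.3% of all genes.

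**Figure D4:**
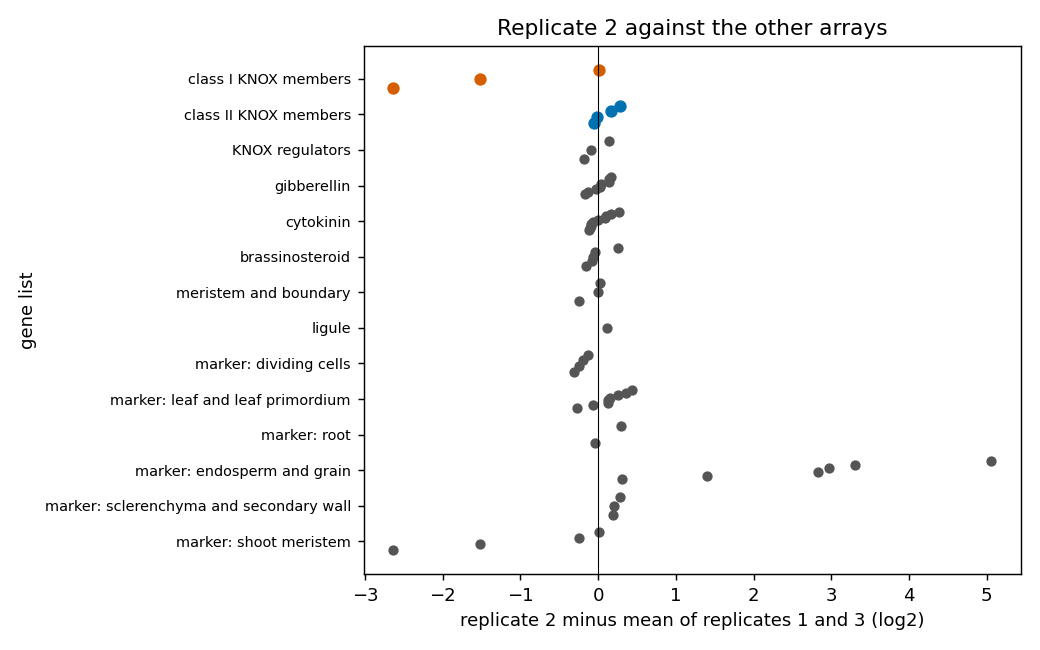
Difference of replicate 2 from the mean of replicates 1 and 3 (x axis, log2) for each gene above the background ceiling on at least 1 array (points), by gene list (y axis). Class I KNOX genes are orange and class II blue. Deposited values are plotted: OSH1 lies at -2.63, which is -1.48 with its value under the ceiling set to it, and OSH71 at -1.52. Both appear again among the shoot meristem markers. The endosperm and grain genes other than GLUA2 lie furthest to the right, and GLUA2, at 0.30, lies left of the leaf markers RCA (0.43) and DL (0.36).

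The genes known to control KNOX genes that could be read gave clear signal. Of 11 symbols searched, 7 matched no gene and 1 had no probe set. All 3 with a probe set passed limma's test above the ceiling, as did 80.6% of all genes. RS2, the rice counterpart of maize rough sheath2, a MYB factor that keeps KNOX genes off in maize leaves, read 11.23, 11.14 and 11.22. AS2, a gene of the LOB domain family named after an Arabidopsis repressor of KNOX genes, read 8.06, 8.06 and 8.43. Its probe set ends in _x_at and may bind other transcripts too. EZ1, a histone methyltransferase of the Polycomb group, read 8.18, 8.34 and 8.21. None of the 3 was lower or higher on replicate 2 than on both other arrays by over 1 log2. Median brightness, which depends on the probes and ranks no amounts of RNA, was 8.24 for these regulators. It was 7.98, 7.62 and 8.08 for the gibberellin, cytokinin and brassinosteroid genes that follow, 6.10 for other meristem and boundary genes and 8.28 over all genes. No BELL partner among the 7 symbols searched matched a gene in the tables, so the partners were not analysed here.

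Class I KNOX proteins are known to lower gibberellin, which does not make each gene listed here their target. Of 9 symbols of gibberellin synthesis and response, 1 matched several genes and was left out. The 8 genes used were CPS1, KS1, KO2, KAO, SLR1, GID1, GA20OX2 and GA20OX3. No GA2OX or GA3OX gene, also searched for, was among them, so those oxidases were not read. All 8 passed limma's test above the ceiling, a share to be read against the 80.6% of all genes. GID1, the gibberellin receptor, had the brightest probe set, with a mean of 9.90 ± 0.16 (SD, n = 3), and CPS1, which makes the first committed precursor, the dimmest, 5.98 ± 0.24. GA20OX2, a gibberellin 20-oxidase known as the semidwarf gene, had the widest spread and read 6.98, 6.43 and 6.14. It was lowest on replicate 3, so its values did not follow those of OSH1. The list's median shift on replicate 2 was 0.03.

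Of 13 cytokinin genes, 10 lay above the ceiling, against 80.6% of all genes, and 3, CKX1, CKX4 and LOGL6, below it, all by limma, against 14.9% of all genes below it. Another 4 symbols had no probe set, and no IPT (isopentenyl transferase) gene, also searched for, was among the 13. LOGL7, of the LONELY GUY family of cytokinin-activating enzymes, had the brightest probe set, with a mean of 9.76 ± 0.10 (SD, n = 3). CKX3 had the dimmest of those above the ceiling, 5.66 ± 0.17, and CKX11 the widest spread, 7.50, 7.73 and 8.13. Both are cytokinin oxidases, which break the hormone down. LOG, known from the rice shoot meristem, read 7.19, 7.23 and 7.27, with no low value on replicate 2.

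Of 8 brassinosteroid symbols, 1 matched no gene and 2 had no probe set. All 5 brassinosteroid genes used passed above the ceiling, against the same 80.6%. CYP734A4 and CYP734A6, of the family that inactivates brassinosteroids, read 6.18, 6.49 and 6.29, and 7.04, 7.10 and 7.25. Both were lowest on replicate 1, and CYP734A4 was highest on replicate 2. BRI1, the receptor, had the brightest probe set, with a mean of 10.38 ± 0.12 (SD, n = 3).

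Of 17 other meristem and boundary symbols, OSH15 and OSH10 among them, 7 matched no gene and 6 had no probe set. Of the 4 genes used, FON1, a receptor kinase that limits meristem size, read 8.80, 8.94 and 9.03 and passed. LOG, which stands in both lists, passed too. LAX1, a factor of axillary meristems, read 4.67, 4.65 and 4.68, below the ceiling (limma adjusted p = 0.018). WOX4, given above, passed in neither direction. Of the ligule genes, LG1 read 5.83, 6.44 and 6.83 and passed, and LG2 (4.62, 4.65 and 4.95) did not. LG1, an SBP-type factor of the blade and sheath boundary, was thus lowest on replicate 1 and not on replicate 2.

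The genes whose pattern over the 3 arrays was most like that of OSH1, by the distance between deviations from each gene's own mean, were LOC4347898 (0.71 log2), LOC4339414 (0.97), OSH71 (1.02), LOC4337129 (1.20) and LOC4331706 (1.32). OSH71 was thus at rank 3 among 15140 genes above the ceiling on at least 1 array. For OSH71 they were LOC4339414 (0.36), LOC4331706 (0.43), LOC4347898 (0.53), LOC4344051 (0.60) and LOC4333691 (0.64), and 362 genes were nearer to OSH71 than OSH1 was. The 2 sets of 5 shared 3 genes. LOC4337129 read 6.48, 5.60 and 7.87, LOC4331706 6.65, 5.53 and 6.50, LOC4344051 5.19, 4.29 and 5.34, and LOC4333691 7.37, 6.54 and 7.40. All were lowest on replicate 2, which the measure favours, and 3 arrays cannot show that genes vary together beyond it.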

How the data were processed

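Total RNA of 3 shoot-tip samples was labelled with biotin from 6 ug and hybridised to Affymetrix arrays, per the labels' protocols. The deposited log2 values were made by the authors with RMA, run in Affymetrix Expression Console according to the submitters' processing notes, which name no version or setting. RMA equalizes the arrays' distributions, compresses low values and can give exact ties. Arrays give no read depth: their number, 3, limits precision.

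Of 57258 probe sets that are not controls, 22436 have 1 gene in the platform annotation, 95 several and 34727 none listed. Names came from gene IDs, symbols and synonyms of assembly ASM3414082v1. A probe set listed for several genes was not used. The brightest probe set stood for a gene. Of the list symbols, those that matched 1 gene with a probe set were used, and the text does not name every symbol searched. The rule named per list the highest mean, the lowest mean and the highest SD among genes above the ceiling on at least 1 array. Genes most like a member were the nearest 5, for members with a range over 1 log2.

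limma 3.58.1 in R 4.3.3 fitted an intercept to all probe sets (trended, robust eBayes; Benjamini-Hochberg at 0.05), once to values minus the ceiling (two-sided) and once for 95% intervals and for an F test of variances over the trend, with the prior degrees of freedom (3.65) of the bulk of probe sets. SD percentiles are within 10 equal bands of mean level. The scripts were tested on simulated data. Members, lists, ceiling and thresholds were chosen with earlier results of these data known. Alternatives are given in the closing section.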

Additional observations from a re-analysis of the deposited data

How the results depend on the processing

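The number of KNOX genes above the ceiling on all arrays was 6 under most alternatives, 5 with the highest Tag control of all arrays as 1 ceiling, 4 of the 7 genes left without _x_at, _s_at and _a_at probe sets, and 6 to 7 when a replicate was left out. The number of KNOX probe sets above the ceiling by limma was 5, and 3 without _x_at, _s_at and _a_at probe sets, where 7 were tested, and 6 or 7 with the other ceilings. It was 5 to 8 when a replicate was left out. The 8 came without replicate 2, where both OSH1 probe sets and OSH71 joined. Fits with a replicate left out hold 2 arrays each, and their p-values rest largely on variances borrowed from other probe sets. No KNOX probe set passed the test of spread under any alternative run. The alternatives were quantile normalization, median centring, gene means and _at probe sets alone. The others were a replicate left out, the filter above the array median, and eBayes without trend and robustness. In the last, 611 probe sets had an unadjusted p under 0.05 in the F test. Apart from the filter, where 51 probe sets passed, 0 of all probe sets passed in each alternative. There the test set no probe set apart, so its result says nothing particular about the KNOX genes. OSH71 passed against the ceiling with the 95th percentile of Tag controls (limma adjusted p = 0.040), the array median (0.012) or the highest Tag control of all arrays (0.028) as ceiling, and without trend and robustness (0.0063). Replicate 2 minus the other arrays was -2.74 to -1.48 for OSH1, the latter with low values set to the ceiling, and -1.73 to -1.31 for OSH71. In alternatives chosen after seeing the data, the 2 KNOX genes with a drop over 1 log2 were among 4 genes in all with low values set to the ceiling or gene means, 5 with median centring and 47 at 0.5 log2. No paired analysis was possible because there is 1 group. With 3 arrays, values near background carry little information, and a p that misses the threshold does not show that a gene did not vary.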
